A study of Mus musculus with 89 samples.

Results

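The enzymes that write and remove DNA methylation were followed by RNA-seq in mouse embryonic stem cells (ESCs) that lacked Esrrb, Nr5a2 or both. The 8 genes described are the rows whose symbol is Dnmt1, Uhrf1, Dnmt3a, Dnmt3b, Dnmt3l, Tet1, Tet2 or Tet3, out of 54146 gene rows in the expression tables, and they were chosen by name. The study asked how the orphan nuclear receptors Esrrb and Nr5a2 together maintain pluripotency, and 20 RNA-seq libraries were made from 4 states of the cells in 2 media. A further 69 ChIP-seq samples were not analysed here. All libraries came from EKOiE cells, in which the endogenous Esrrb gene is knocked out and an Esrrb transgene is induced by doxycycline (Dox). EKOiE cells with Dox at 1 µg/ml were the +E+N state. The same cells 2 days after Dox withdrawal were −E. The −N state was an EKOiE NrKO line with Dox, in which an exon of the DNA binding domain of Nr5a2 was disrupted on both alleles, and −E−N was that line 2 days after Dox withdrawal. The supplement describes 2 such clones and RNA-seq reads of clone 4, and the labels do not say which clone each library is from, so effects of a clone cannot be told apart from that of losing Nr5a2. Cells were grown in FCS/LIF, which holds serum, with 2 replicates per state, or in 2i/LIF, serum-free medium with inhibitors of Mek and Gsk3, with 3 replicates per state. Medium and culture batch cannot be told apart.

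DNA methylation in mammals is laid down on cytosines that precede guanines (CpG). Dnmt3a and Dnmt3b methylate DNA de novo, and Dnmt3l, which has no catalytic activity of its own, binds and stimulates them. Dnmt1 copies the pattern onto the new strand at each DNA replication and is brought to hemimethylated sites by Uhrf1. Tet1, Tet2 and Tet3 oxidise 5-methylcytosine to 5-hydroxymethylcytosine and beyond, which leads to loss of the mark. Mouse ESCs in serum are known for high levels of methylation and of Dnmt3 proteins, and those in 2i for a hypomethylated genome. The values below are RNA levels, and DNA methylation itself was not measured in these libraries.

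Library totals ran from 36514172 to 45443379 estimated counts in FCS/LIF, and were lower in 2i/LIF, at 26653035 to 32526534. Levels of 1 gene across libraries are given in CPM, counts scaled to a library of 1000000 with TMM over all 20 libraries, and levels of different genes are compared only in TPM, which accounts for transcript length. A difference counted as called with an adjusted p under 0.01 and a fold change over 1.5 in edgeR's quasi-likelihood test. All 8 genes passed the low count filter in both media, which asked for 20 counts or more in every replicate of some state. The study describes the circles it plots for these RNA-seq replicates as independent experiments. In 2i/LIF, −E−N replicate 3 and −E replicate 1 stood furthest apart from their own replicates in counts over genes. The chi-square per degree of freedom was 25.8 and 20.8 for pairs with −E−N replicate 3 against 8.53 for the other pair, and 24.5 and 23.6 for pairs with −E replicate 1 against 7.32. Replicate 1 also stood apart in 2i/LIF +E+N (12.4 and 16.6 against 5.12) and −N (10.9 and 17.3 against 6.23), so this was not particular to −E. In bulk RNA, fewer cells of a type and less RNA per cell cannot be told apart. The Esrrb row fell in −E from 312 ± 57.6 CPM to 69.6 CPM in FCS/LIF (n = 2) but stood at 576 ± 52.9 CPM in +E+N and 418 ± 33.2 CPM in −E in 2i/LIF (SD, n = 3), where it was not called (log2 fold change -0.46 ± 0.16, SE, edgeR adjusted p = 0.116). In −E−N it was called lower in both media, with log2 fold changes of -3.39 in FCS/LIF and -1.97 in 2i/LIF. In TPM the Esrrb mean in 2i/LIF was 237 for +E+N and 123 for −E, and the libraries overlapped in neither CPM nor TPM. The whole-gene count does not separate the transgene from the endogenous gene. Nr5a2 stood at 70.8 CPM in +E+N and 68.8 CPM in −N in 2i/LIF, and its whole-gene count does not check the disruption of 1 exon. Nr5a2 RNA was also called lower in FCS/LIF −E, where the gene is intact, from 37.9 to 19.4 CPM (log2 fold change -0.98 ± 0.09, edgeR adjusted p = 0.000133). In 2i/LIF −E its fall was not called (-0.59 ± 0.21, adjusted p = 0.129).

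In GENCODE vM21 on mm10, the files' build, Dnmt1 lies on chromosome 9 from 20907209 to 20959888 and Uhrf1 on chromosome 17 from 56303321 to 56323486. Dnmt3a lies on chromosome 12 from 3806007 to 3914443, Dnmt3b on chromosome 2 from 153649450 to 153687730, and Dnmt3l on chromosome 10 from 78041947 to 78063622. Tet1 lies on chromosome 10 from 62804570 to 62908996, Tet2 on chromosome 3 from 133463679 to 133545139, and Tet3 on chromosome 6 from 83362373 to 83459084. Dnmt1, Tet1, Tet2 and Tet3 are on the minus strand and the other 4 genes on the plus strand. Dnmt3l overlaps the protein-coding gene Aire on the opposite strand. Aire held between 567 and 1095 counts per library in FCS/LIF, where Dnmt3l held 21974 to 33657.

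The promoters of the genes whose RNA moved most hold CpGs at different densities, and 250 bases upstream of a RefSeq start (GRCm38.p6, the assembly of mm10) are shown for each of 4 genes, in the direction of the gene, with each CpG in capitals. They are shown for their CpG content. Which start the RNA of these libraries used was not tested. For Dnmt3l this is 1 of 3 RefSeq windows, and the Tet1 start lies 21672 bases inside the 5′ end of the gene in GENCODE.
Tet1, chr10:62887325-62887574, minus strand: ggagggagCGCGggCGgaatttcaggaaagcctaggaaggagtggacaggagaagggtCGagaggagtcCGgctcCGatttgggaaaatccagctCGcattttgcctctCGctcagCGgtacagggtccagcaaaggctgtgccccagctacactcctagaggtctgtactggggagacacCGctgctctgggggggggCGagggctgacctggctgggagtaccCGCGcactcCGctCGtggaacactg
Tet2, chr3:133544391-133544640, minus strand: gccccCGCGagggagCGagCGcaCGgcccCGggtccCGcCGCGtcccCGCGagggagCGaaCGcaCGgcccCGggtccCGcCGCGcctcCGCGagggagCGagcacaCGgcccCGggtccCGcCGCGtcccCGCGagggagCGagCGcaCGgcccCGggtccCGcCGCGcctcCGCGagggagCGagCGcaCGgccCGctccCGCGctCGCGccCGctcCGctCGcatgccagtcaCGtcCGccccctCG
Dnmt3b, chr2:153649199-153649448, plus strand: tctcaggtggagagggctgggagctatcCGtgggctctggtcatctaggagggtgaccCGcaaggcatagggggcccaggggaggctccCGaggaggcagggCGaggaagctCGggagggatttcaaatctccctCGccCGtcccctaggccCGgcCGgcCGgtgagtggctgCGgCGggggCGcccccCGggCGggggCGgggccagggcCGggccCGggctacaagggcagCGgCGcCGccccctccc
Dnmt3l, chr10:78042037-78042286, plus strand: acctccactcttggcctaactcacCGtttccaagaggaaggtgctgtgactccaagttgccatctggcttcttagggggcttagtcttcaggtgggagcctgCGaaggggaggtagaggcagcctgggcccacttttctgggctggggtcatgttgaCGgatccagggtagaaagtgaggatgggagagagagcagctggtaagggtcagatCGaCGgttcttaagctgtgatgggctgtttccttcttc
The Tet2 sequence holds 51 CpGs, Dnmt3b 21, Tet1 15 and Dnmt3l 5, and the median over RefSeq windows of that length is 6. Esrrb and Nr5a2 bind related nuclear receptor sites. The forms TCAAGGTCA and TCAAGGCCA were searched on both strands of the 15 RefSeq windows of the 8 genes, each of 300 bases from 250 before a start to 50 after it, and stood in 0 of 15. Among all 32851 windows, TCAAGGTCA stood in 0.423% and TCAAGGCCA in 0.591%. The shorter AAGGTCA and AAGGCCA, which the longer forms contain, stood in 4.72% and 6.2% of all windows. AAGGCCA stood in 1 window of Dnmt1 and in 1 of Dnmt3l. A match describes letters, and its absence here says nothing of binding elsewhere in these genes.

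The 8 genes differed widely in how far their RNA moved over the 8 groups of state and medium. Dnmt1 moved least, with a highest group mean 1.15 times the lowest on the CPM scale, and Dnmt3l most, with 37.7 times. Between these, the same ratio of CPM means was 2.55 for Uhrf1, 3.01 for Tet3, 4.68 for Dnmt3a, 4.72 for Tet1, 7.65 for Tet2 and 8.91 for Dnmt3b. The de novo enzymes differed most between the media, and Tet1 and Tet2 fell with the loss of both factors in both media.

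Ordered by group mean in CPM, the 8 groups fell differently for each enzyme. For Dnmt3a the order was FCS/LIF +E+N, −N, −E and −E−N, then 2i/LIF −E, −E−N, −N and +E+N. Of neighbours in this order only the last pair overlapped, and 2i/LIF −E−N also touched the range of +E+N. For Dnmt3l it was FCS/LIF −E, −E−N, −N and +E+N, then 2i/LIF −E−N, −E, −N and +E+N, with overlap between −E and −E−N in both media and between −N and +E+N in FCS/LIF. Tet1 ran from FCS/LIF +E+N, −N and −E through 2i/LIF +E+N, −N and −E to FCS/LIF −E−N and 2i/LIF −E−N. In 2i/LIF the Tet1 range of −N overlapped those of +E+N and −E, which did not overlap each other. Tet2 began with 2i/LIF +E+N, −E and −N and FCS/LIF +E+N, each overlapping the next, followed without overlap by FCS/LIF −N, 2i/LIF −E−N, FCS/LIF −E and FCS/LIF −E−N. For Tet3 the FCS/LIF groups came first as −E−N, −E, −N and +E+N without overlap, and the 4 groups in 2i/LIF overlapped in a row.

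**Figure D1:**
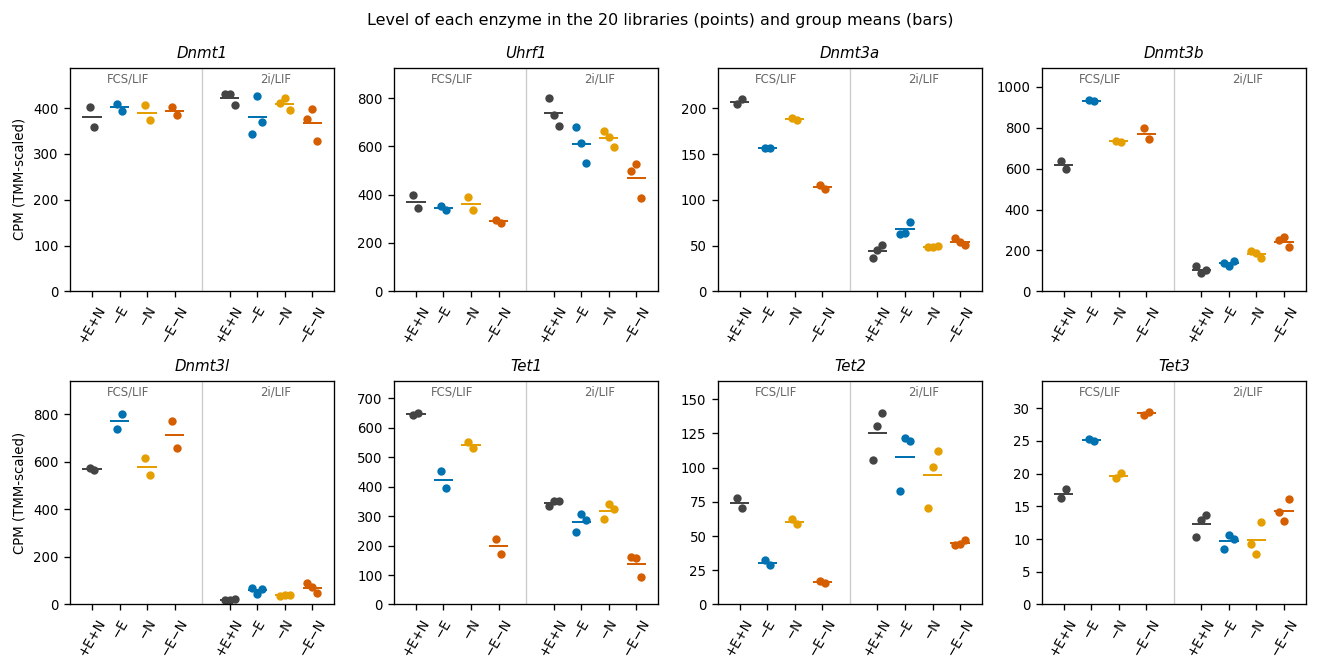
Level of each of the 8 genes in CPM (linear axes from 0, 1 panel per gene) for each state and medium, with points for libraries and bars for group means. Dnmt1 stays between 327 and 431 CPM in all 20 libraries, while Dnmt3l lies between 544 and 801 CPM in FCS/LIF and between 17.2 and 89.3 CPM in 2i/LIF.

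The maintenance enzyme Dnmt1 varied least. Its libraries lay between 358 and 410.3 CPM in FCS/LIF and between 327 and 431 CPM in 2i/LIF, and the ranges of every pair of neighbours in the order of the 8 groups overlapped. Groups further apart in that order did not all overlap. In 2i/LIF the −E−N libraries, at 327 to 398 CPM, lay below those of +E+N, at 408 to 431 CPM. In −E−N against +E+N the log2 fold change was 0.03 ± 0.07 (SE, edgeR adjusted p = 0.716) in FCS/LIF and -0.19 ± 0.08 (adjusted p = 0.0835) in 2i/LIF. The 95% intervals of these log2 differences ran from -0.12 to 0.19 and from -0.37 to -0.01.

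RNA of Uhrf1, whose protein guides Dnmt1 to hemimethylated DNA, was higher in 2i/LIF than in FCS/LIF and, in 2i/LIF, fell without both factors. In FCS/LIF its CPM was 399 and 344 for +E+N, 354 and 337 for −E, 391 and 336 for −N, and 296 and 282 for −E−N. Only the −E−N libraries lay below all the others there, and the log2 fold change of -0.38 ± 0.09 (SE, edgeR adjusted p = 0.00717) was under the fold limit. In 2i/LIF its CPM was 801, 729.6 and 685 for +E+N, 682, 613 and 532 for −E, 662, 639 and 598 for −N, and 499, 528 and 385 for −E−N. The −E−N libraries were again below those of every other state, with a called log2 fold change of -0.64 ± 0.12 (adjusted p = 0.000818). That call was lost to the fold limit without +E+N replicate 1 (-0.57) and without −E−N replicate 3 (-0.52). In the order of CPM means, all 4 groups in 2i/LIF stood above all 4 in FCS/LIF, and 2i/LIF −E−N and FCS/LIF +E+N overlapped.

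The de novo methyltransferases and Dnmt3l formed a second pattern, with levels far apart between the media and with responses to the losses that differed by gene. Dnmt3l was the most abundant of the 3 in FCS/LIF, where its mean in +E+N was 473 TPM against 183 TPM for Dnmt3b and 70.3 TPM for Dnmt3a. In 2i/LIF +E+N the order was Dnmt3b at 31.0 TPM, Dnmt3l at 16.4 TPM and Dnmt3a at 10.0 TPM.

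Dnmt3a RNA fell with the loss of the factors in FCS/LIF. Its CPM there was 205 and 209.8 for +E+N, 190.1 and 187 for −N, 157 and 157 for −E, and 116 and 112 for −E−N, with no overlap between states. The lower level in −E−N was called (log2 fold change -0.88 ± 0.05, SE, edgeR adjusted p = 4.58e-06), while the log2 fold change in −E, -0.42 (adjusted p = 0.000649), was under the fold limit. In 2i/LIF the level was much lower and moved the other way in −E. The CPM in 2i/LIF was 36.9, 44.9 and 51.1 for +E+N, 63.0, 64.2 and 76.0 for −E, 48.2, 48.1 and 49.6 for −N, and 58.0, 53.5 and 50.9 for −E−N. Only the −E libraries stood above all those of +E+N without touching, and −E−N touched the +E+N range. The rise in −E was called (log2 fold change 0.61 ± 0.11, adjusted p = 0.00644) but was just over the fold limit and was lost in 8 of 12 fits that left out 1 library (0.50 to 0.66, adjusted p 0.0106 to 0.0356), in limma on log2 TPM and in a fit of the compared states alone. In −E−N the 2i/LIF value was 0.30 ± 0.11 (adjusted p = 0.0416), not called.

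Dnmt3b had a higher group mean in each state that lacked a factor, in both media, and the differences from +E+N were called only in 2i/LIF. In FCS/LIF its CPM was 635 and 597 for +E+N, 935 and 932 for −E, 736 and 730.3 for −N, and 797 and 744 for −E−N. No state overlapped another there. The difference in −E (log2 fold change 0.581 ± 0.05, SE, edgeR adjusted p = 0.000183) was just under the fold limit, which is 0.585 on that scale. DESeq2, limma on log2 TPM and a fit of all 20 libraries called it, and so did 5 of 8 fits that left out 1 library. In 2i/LIF its CPM was 122, 89.8 and 102 for +E+N, 141, 125 and 146 for −E, 199, 187 and 161 for −N, and 249, 264 and 215 for −E−N. The 4 states again did not overlap, and in this medium the loss of both factors gave the highest level. The rises in −N (0.79 ± 0.12, adjusted p = 0.00119) and −E−N (1.23 ± 0.12, adjusted p = 6.95e-06) were called, and −E−N was also called above −E (0.83 ± 0.12, adjusted p = 0.000218). Over all 8 groups the order of Dnmt3b by CPM was FCS/LIF −E, −E−N, −N and +E+N and then 2i/LIF −E−N, −N, −E and +E+N, and no pair of neighbours overlapped. Summed trophectoderm marker RNA, described further on, also stood higher in −N than in +E+N in 2i/LIF. Of its genes, Krt8 and Krt18 were called there (log2 fold changes 2.45 and 2.78), beside 3.65% of all genes. Cdx2 (2.49, edgeR adjusted p = 0.0149) and Gata3 (0.30, adjusted p = 0.557) were not. The part of these markers in the Dnmt3b result was not tested.

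Dnmt3l RNA rose most in proportion, and only from its low level in 2i/LIF did a rise pass both limits. In 2i/LIF its CPM was 20.4, 17.2 and 23.8 for +E+N, 71.0, 45.9 and 66.7 for −E, 37.0, 38.4 and 39.2 for −N, and 89.3, 71.9 and 49.5 for −E−N. Each of the 3 losses lay above +E+N without overlap, and −E and −E−N overlapped. The rise was 3.00-fold in −E (log2 fold change 1.58 ± 0.21, SE, edgeR adjusted p = 0.00103) and 3.46-fold in −E−N (1.79 ± 0.21, adjusted p = 2.9e-05), both called. In −N the value was 0.89 ± 0.21 (adjusted p = 0.0155), which was not called by edgeR but was called by DESeq2, with an adjusted p limit of 0.05, and without −E−N replicate 3 (also 0.89). In FCS/LIF its CPM was 574 and 566 for +E+N, 740.4 and 801 for −E, 615 and 544 for −N, and 771 and 658 for −E−N. The −E and −E−N libraries stood above both others there, with log2 fold changes of 0.42 ± 0.08 (adjusted p = 0.00941) and 0.31 ± 0.08 (adjusted p = 0.0154) that were not called. Aire, on the opposite strand, held 17 to 195 counts per library in 2i/LIF +E+N, where Dnmt3l held 463 to 685, and 108 to 584 in −E, where Dnmt3l held 1277 to 1988. The log2 fold change of Aire in 2i/LIF was 1.71 ± 0.97 in −E (adjusted p = 0.356), -0.81 ± 1.02 in −N (adjusted p = 0.689) and 0.09 ± 0.98 in −E−N (adjusted p = 0.954). It held 14 to 115 counts in −N and 14 to 273 in −E−N, where Dnmt3l held 1019 to 1048 and 1465 to 2718. Whether the counting used strand is not stated, so reads shared by the 2 genes cannot be told apart.

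Tet1 and Tet2 were the genes of this group most reduced without both factors. Tet1 is the main Tet enzyme of ESCs. In FCS/LIF its CPM was 643 and 650.1 for +E+N, 551 and 531 for −N, 452 and 394 for −E, and 223 and 172 for −E−N. The 4 states did not overlap, and Tet1 in −E−N fell 3.32-fold below +E+N (log2 fold change -1.73 ± 0.11, SE, edgeR adjusted p = 9.39e-06). The fall in −E (-0.63 ± 0.11, adjusted p = 0.00468) was called but was lost without any 1 of the 4 +E+N and −E libraries (-0.53 to -0.72, adjusted p 0.0167 to 0.0649), in limma and in a fit of all 20 libraries. In 2i/LIF its CPM was 333, 351 and 350.1 for +E+N, 245, 308 and 287 for −E, 291, 339.8 and 326 for −N, and 161, 157 and 92.7 for −E−N. Only −E−N was called against +E+N there, 2.49-fold lower (-1.32 ± 0.16, adjusted p = 4.82e-05), and −E (-0.30 ± 0.16, adjusted p = 0.332) and −N (-0.12, adjusted p = 0.715) were not. Against −E, Tet1 in −E−N was lower by 1.10 on the log2 scale in FCS/LIF (adjusted p = 0.000591) and by 1.02 in 2i/LIF (adjusted p = 0.000537), both called. The FCS/LIF call was lost without −E replicate 1 (-1.02).

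Tet2 showed the steepest fall of the 8 in −E−N in both media by the fitted log2 fold change. In FCS/LIF its CPM was 78 and 70.8 for +E+N, 62.2 and 58.5 for −N, 32.5 and 28.6 for −E, and 16.8 and 15.9 for −E−N. No state overlapped another, and Tet2 was called lower in −E, by 2.46-fold (log2 fold change -1.30 ± 0.08, SE, edgeR adjusted p = 3.28e-05), and in −E−N, by 4.61-fold (-2.20 ± 0.09, adjusted p = 8.05e-07). In 2i/LIF its CPM was 106, 130.1 and 139.7 for +E+N, 82.8, 121 and 119.6 for −E, 70.6, 100.4 and 112 for −N, and 43.7, 44.4 and 47.0 for −E−N. The 2 single losses overlapped +E+N and were not called, with log2 fold changes of -0.21 ± 0.17 (adjusted p = 0.535) in −E and -0.41 ± 0.17 (adjusted p = 0.154) in −N. The −E−N libraries lay below all others and Tet2 was called 2.75-fold lower there (-1.46 ± 0.18, adjusted p = 3.98e-05). In the same medium, −E−N was also called lower than −E (-1.25, adjusted p = 0.000232) and than −N (-1.05, adjusted p = 0.00164), and limma on TPM did not call the latter.

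Tet3 moved in the opposite direction to Tet1 and Tet2 in FCS/LIF. It had the lowest mean TPM of the Tet genes in every group but FCS/LIF −E−N. In that group Tet3 averaged 3.61 TPM and Tet2 3.24 TPM. Its CPM in FCS/LIF was 16.2 and 17.7 for +E+N, 19.3 and 20.1 for −N, 25.2 and 25.1 for −E, and 29.0 and 29.5 for −E−N. The states did not overlap, and −E−N was called higher (log2 fold change 0.77 ± 0.08, SE, edgeR adjusted p = 8.36e-05), while the value in −E was under the fold limit (0.55 ± 0.08, adjusted p = 0.00163) unless +E+N replicate 2 was left out (0.61). In 2i/LIF all 12 libraries lay between 7.75 and 16.1 CPM, and −E−N at 14.2, 12.7 and 16.1 CPM overlapped +E+N at 10.4, 13 and 13.6 CPM. No difference from +E+N was called for Tet3 in 2i/LIF, where −E−N gave 0.23 ± 0.18 (adjusted p = 0.319).

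Counted by comparison, the calls among the 8 genes were as follows, each beside the share of all tested genes that was called. In FCS/LIF, −E against +E+N gave 2 calls, Tet1 and Tet2, both lower, with 5.76% of all genes called (3.23% higher and 2.53% lower). Without Nr5a2 alone in FCS/LIF, edgeR called 0 of the 8 and 0.173% of all genes (0.0767% higher and 0.0959% lower), and DESeq2 and limma also called 0. At an unadjusted p under 0.05 there were 5 of the 8. The share of all genes at that unadjusted limit is not given, here or further on, so such counts are not read as a response. In −E−N, 4 were called, Tet3 higher and Dnmt3a, Tet1 and Tet2 lower, with 18.8% of all genes called (12.4% higher and 6.4% lower). Between −E−N and −N, the comparison of Esrrb loss in the line that lacks Nr5a2, 3 of the 8 were called lower (Dnmt3a, Tet1 and Tet2) beside 10.1% of all genes (6.57% higher and 3.49% lower). Between −E−N and −E, 2 were called lower (Tet1 and Tet2) beside 5.05% (3.52% higher and 1.53% lower), where limma on TPM called Dnmt3a and did not call Tet2. The median log2 fold change over the 8 genes in FCS/LIF −E−N was -0.17, and that over all genes tested was 0.

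In 2i/LIF the loss of Esrrb gave 2 calls, Dnmt3a and Dnmt3l, both higher, with 1.55% of all genes called (0.439% higher and 1.11% lower). Esrrb RNA itself was not called lower in that state, though each library lay below all those of +E+N. The study reports that Esrrb binding was ablated there. The loss of Nr5a2 gave 1 call, Dnmt3b, beside 3.65% (1.61% higher and 2.04% lower). The loss of both gave 5 calls, Dnmt3b and Dnmt3l higher and Uhrf1, Tet1 and Tet2 lower, beside 18.6% (9.06% higher and 9.56% lower). Against −N, −E−N gave 3 calls, Dnmt3l higher and Tet1 and Tet2 lower, beside 6.76% (3.39% higher and 3.36% lower), and the Dnmt3l call (log2 fold change 0.90 ± 0.20, edgeR adjusted p = 0.00828) was lost in 8 of 12 fits that left out 1 library (0.69 to 0.91, adjusted p 0.0106 to 0.0322). Against −E, −E−N gave 3 calls, Dnmt3b higher and Tet1 and Tet2 lower, beside 13.1% (6.9% higher and 6.21% lower). Without −E−N replicate 3, which held the lowest Tet1 and Uhrf1 of the 12 libraries, the log2 fold changes in −E−N were -1.11 for Tet1, -1.50 for Tet2, 1.30 for Dnmt3b and 1.98 for Dnmt3l, which were called, and -0.52 for Uhrf1, which was not. Without −E replicate 1, those in −E were 1.45 for Dnmt3l, which was called, and 0.65 for Dnmt3a, which was not. The median log2 fold change over the 8 genes in 2i/LIF −E−N was 0.02, and over all genes tested 0.01. The comparisons within a medium share their +E+N libraries.

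**Figure D2:**
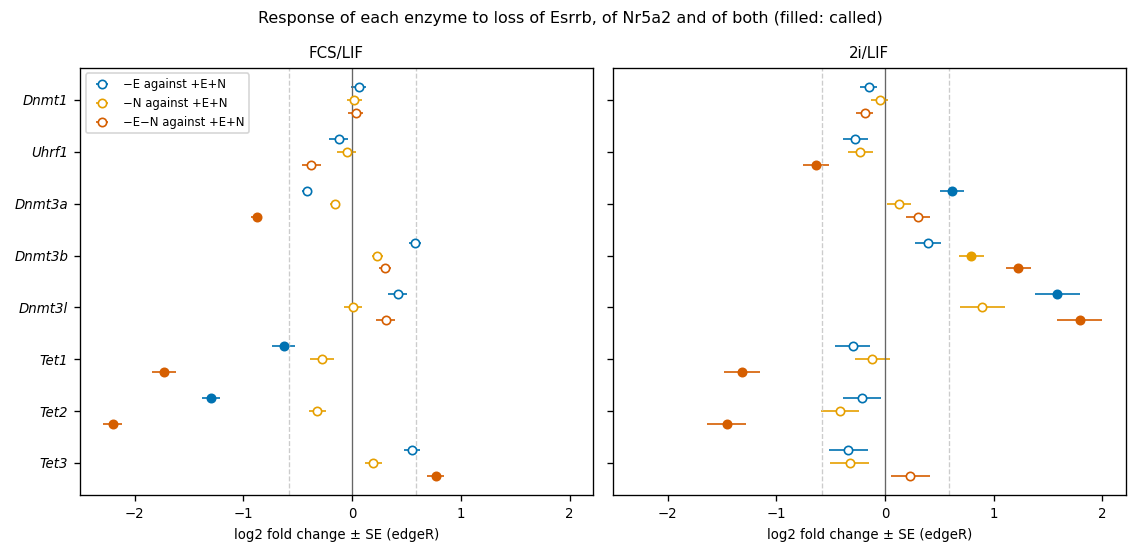
Log2 fold change against +E+N of each of the 8 genes in −E, −N and −E−N, for FCS/LIF and 2i/LIF, with bars of 1 SE from the edgeR fit and filled symbols for called values. Tet1 and Tet2 reach -1.73 and -2.20 in FCS/LIF −E−N and -1.32 and -1.46 in 2i/LIF −E−N, and Dnmt3l reaches 1.79 in 2i/LIF −E−N.

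Whether the loss of both factors differed from the sum of the single losses on the log2 scale was tested as an interaction, with no limit on its size. In FCS/LIF edgeR called 0 of the 8 genes and 0.032% of all genes, each below 0, and 4 of the 8 had an unadjusted p under 0.05. The largest estimates there were Tet1 at -0.83 ± 0.15 (SE, edgeR adjusted p = 0.164), Tet2 at -0.58 ± 0.12 (adjusted p = 0.189) and Dnmt3b at -0.51 ± 0.08 (adjusted p = 0.0741). DESeq2 called Dnmt3b and Tet1 in FCS/LIF, and limma called 0. In 2i/LIF edgeR called 0 of the 8 and 0.307% of all genes (0.0975% above 0 and 0.209% below), and 5 of the 8 had an unadjusted p under 0.05. The values for Tet1 (-0.90 ± 0.23, adjusted p = 0.0839), Tet2 (-0.83 ± 0.24, adjusted p = 0.134) and Tet3 (0.90 ± 0.25, adjusted p = 0.12) were the largest in that medium. DESeq2 called Tet1 there, and limma called 0. The main fits ignore the replicate numbers, which may pair the libraries. With the replicate number as a block, edgeR called Dnmt3b (-0.51) and Tet1 (-0.83) in FCS/LIF, where calls over all genes went from 5 to 40. In 2i/LIF the block fit called Tet2 (-0.80), and calls over all genes went from 44 to 324. Whether these interactions are called therefore depends on the setting.

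For the de novo enzymes, the difference between the media in +E+N was larger than that of any loss. In +E+N, 2i/LIF against FCS/LIF gave 6 calls among the 8 genes, Uhrf1 and Tet2 higher and Dnmt3a, Dnmt3b, Dnmt3l and Tet1 lower, beside 34.7% of all genes (17.2% higher and 17.5% lower). Dnmt3l was 27.8-fold lower in 2i/LIF (log2 fold change -4.80 ± 0.21, SE, edgeR adjusted p = 1.37e-11), Dnmt3b was lower by 2.56 ± 0.11 on the log2 scale (adjusted p = 1.83e-11) and Dnmt3a by 2.23 ± 0.10 (adjusted p = 2.24e-11). For all 3 genes, the highest 2i/LIF library of any state lay below the lowest FCS/LIF library of any state in CPM. Uhrf1 was higher by 0.99 ± 0.13 (adjusted p = 3.55e-06), and Dnmt1, its partner, showed 0.15 ± 0.09 (adjusted p = 0.145). Among the Tet genes, Tet1 was lower in 2i/LIF (-0.91 ± 0.17, adjusted p = 0.000171) and Tet2 higher (0.75 ± 0.17, adjusted p = 0.00125), while Tet3 was not called (-0.46 ± 0.16, adjusted p = 0.0205). The Tet2 call was lost in limma and without FCS/LIF +E+N replicate 2 (0.67 on the log2 scale).

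The responses to the losses were then compared between media, as the response in 2i/LIF minus that in FCS/LIF with no limit on size. For −E, 1 of the 8 was called, Dnmt3a at 1.01 ± 0.14 (SE, edgeR adjusted p = 0.00103), beside 1.06% of all genes (0.471% above 0 and 0.588% below), and this call was lost without FCS/LIF −E replicate 2 (1.02) and in limma. Dnmt3l (1.14 ± 0.27, adjusted p = 0.0284), Tet2 (1.07 ± 0.24, adjusted p = 0.021) and Tet3 (-0.91 ± 0.23, adjusted p = 0.0372) were not called for −E by edgeR but were by DESeq2. Without 2i/LIF −E replicate 1 or −N replicate 1 the Tet2 difference was called (1.22 and 1.08), and without −E replicate 2 or −E−N replicate 3 that of Dnmt3l (1.31 and 1.16). For −N, edgeR called 0 of the 8 and 0.743% of all genes (0.334% above 0 and 0.409% below), with 3 of the 8 at an unadjusted p under 0.05 and 0 called by DESeq2 and by limma. For −E−N, 3 were called beside 13.2% (5.93% above 0 and 7.3% below), Dnmt3a at 1.15 ± 0.14 (adjusted p = 3.13e-05, not called in limma), Dnmt3b at 0.89 ± 0.16 (adjusted p = 0.000727) and Dnmt3l at 1.45 ± 0.27 (adjusted p = 0.00107). Tet1 (0.38 ± 0.24, adjusted p = 0.274) and Tet2 (0.71 ± 0.25, adjusted p = 0.0452) were not called for −E−N. The Tet1 difference was called without 2i/LIF −E−N replicate 3 (0.63), and both were called with no low count filter (0.44 and 0.77), so whether these falls differ between the media depends on the setting.

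In TPM, which allows the genes to be added, the Dnmt3 RNAs and the Tet RNAs changed both in sum and in make-up. The summed TPM of Dnmt3a, Dnmt3b and Dnmt3l averaged 726 for FCS/LIF +E+N, 1039 for −E, 783 for −N and 946 for −E−N. In 2i/LIF the sum averaged 57.4, 104, 94.2 and 141 TPM in the same order of states. Dnmt3l made up 65.1% of the sum in FCS/LIF +E+N and 28.4% in 2i/LIF +E+N, and in 2i/LIF −E−N its share was 40.1%. Dnmt3a, in contrast, held a smaller share of the summed TPM in −E−N than in +E+N, 3.78% against 9.68% in FCS/LIF and 7.68% against 17.5% in 2i/LIF. The summed TPM of the 3 Tet genes averaged 118 for FCS/LIF +E+N, 76.8 for −E, 103 for −N and 38.2 for −E−N, and 57.7, 47.7, 48.7 and 24.6 in 2i/LIF. Tet1 held 87.0% of it in FCS/LIF +E+N and 59.4% in 2i/LIF +E+N, where Tet2 held 38.3%. The share of Tet3 went from 1.61% in +E+N to 9.5% in −E−N in FCS/LIF, and from 2.30% to 6.49% in 2i/LIF. No test was made on these sums and shares.

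**Figure D3:**
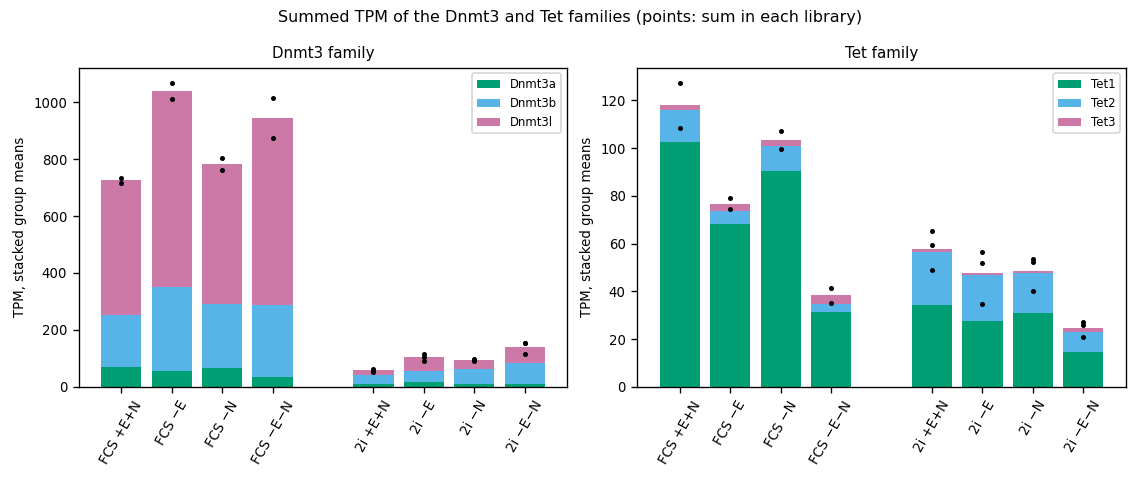
Summed TPM of Dnmt3a, Dnmt3b and Dnmt3l (one panel) and of Tet1, Tet2 and Tet3 (other panel) by state and medium, with stacked group means and points for the sum in each library. The Dnmt3 sum averages 726 TPM in FCS/LIF +E+N and 57.4 TPM in 2i/LIF +E+N, and the Tet sum is lowest in −E−N in both media, at 38.2 and 24.6 TPM.

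For Tet1 and Dnmt3a the distance between the media depended on whether counts or TPM were read. RSEM divides a gene's counts by an effective length averaged over its isoforms, so the ratio of counts to TPM, scaled within each library, follows the length of the isoforms that RSEM assigned. Relative to FCS/LIF +E+N, this ratio for Tet1 was higher by 0.66 on the log2 scale in 2i/LIF +E+N, or 1.58-fold, with 0.72, 0.68 and 0.57 in the 3 libraries. Over all states it lay between 0.48 and 0.77 in the 12 libraries in 2i/LIF and between -0.09 and 0.17 in the 8 libraries in FCS/LIF. For Dnmt3a the shift was 0.59, or 1.51-fold, with 2i/LIF libraries between 0.40 and 0.95 and FCS/LIF libraries between -0.07 and 0.29. Among 9797 genes with at least 100 counts in every library, 64 (0.653%) shifted as far as Tet1 and 105 (1.07%) as far as Dnmt3a, and the other 6 genes stayed within 0.04 of FCS/LIF. With limma on log2(TPM + 1), the medium difference in +E+N was accordingly -1.56 for Tet1 and -2.73 for Dnmt3a, against -0.91 and -2.23 from counts. Isoform tables were not used here, so the transcripts that differ were not identified.

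**Figure D4:**
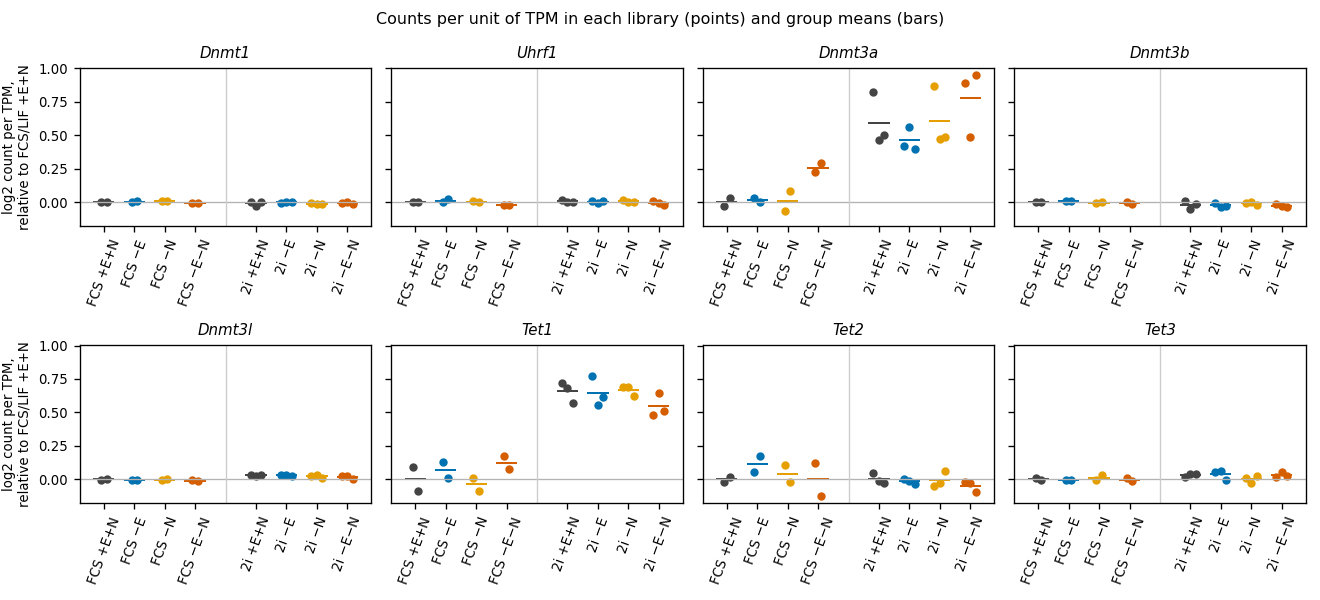
Ratio of counts to TPM, as log2 relative to the mean of FCS/LIF +E+N, for each of the 8 genes by state and medium, with points for the 20 libraries and bars for group means. Tet1 lies at 0.48 to 0.77 in 2i/LIF and -0.09 to 0.17 in FCS/LIF, and Dnmt3a is likewise shifted up in 2i/LIF.

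Marker genes of cell types moved in the same −E−N libraries as the Tet and Dnmt3 RNAs. The calls below stand beside 18.8% of all genes called in FCS/LIF −E−N (12.4% higher and 6.4% lower). In 2i/LIF −E−N that share was 18.6% (9.06% higher and 9.56% lower). The summed TPM of 8 ESC identity genes (Pou5f1, Sox2, Nanog and others) was 7793 to 7926 in FCS/LIF +E+N and 4563 to 4947 in −E−N, and 7634 to 8030 and 2847 to 3838 in 2i/LIF, with 7 of 8 called lower in each medium. The summed TPM of 6 trophectoderm genes ran from 235 to 283 for FCS/LIF +E+N, from 362 to 503 for −E, from 508.5 to 735 for −N and from 1106 to 1726 for −E−N, where 6 of 6 were called higher. In 2i/LIF the range was 8.76 to 12.5 for +E+N, 7.17 to 9.69 for −E, 61.2 to 69.2 for −N and 167 to 285 for −E−N, where 4 of 4 tested were called higher. In each of the other lists the −E−N calls in 2i/LIF went both ways. In FCS/LIF they were 1 of 6 for primitive endoderm (higher), 2 of 3 for mesoderm (both higher), 3 of 6 for neural genes (2 higher and 1 lower) and 4 of 5 for fibroblast genes (all higher). In 2i/LIF they were 2 of 4 for primitive endoderm (1 higher and 1 lower), 3 of 4 for mesoderm (1 higher and 2 lower), 2 of 4 for neural genes (1 higher and 1 lower) and 2 of 3 for fibroblast genes (1 higher and 1 lower). The summed TPM of the fibroblast genes was at most 6.87 in any library. The part of these cells or programmes in the Tet and Dnmt3 results was not tested.

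Genes that work with these enzymes were read from lists of their pathway in −E−N against +E+N, a comparison that called 18.8% of all genes in FCS/LIF, and 18.6% in the 2i/LIF libraries. The lists are small, and the genes named below are single calls that say nothing of a list as a whole. Of 10 maintenance partners tested in each medium, 2 were called in each. Zfp57, which keeps imprinted regions methylated, fell in both, from 233 to 56 CPM in FCS/LIF (log2 fold change -2.07 ± 0.05, SE, edgeR adjusted p = 9.63e-08) and from 285 to 169.9 CPM in 2i/LIF (-0.73 ± 0.12, adjusted p = 0.000306). Its cofactor Trim28 fell in FCS/LIF (-0.64 ± 0.13, adjusted p = 0.0031), and Uhrf2, the paralog of Uhrf1, rose in 2i/LIF from 32.5 to 124 CPM (1.95 ± 0.18, adjusted p = 5.53e-06). The median log2 fold change of this list stood at -0.26 in FCS/LIF and -0.02 in 2i/LIF, beside 0 and 0.01 over all genes tested.

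Among regulators of the methylation enzymes, 2 of 12 were called in FCS/LIF (1 higher and 1 lower) and 3 of 11 in 2i/LIF (2 higher and 1 lower), beside 18.8% and 18.6% of all genes. Prdm14, a repressor of Dnmt3b and Dnmt3l in ESCs, fell in both media, from 5.54 to 1.04 CPM in FCS/LIF (log2 fold change -2.44 ± 0.26, SE, edgeR adjusted p = 0.00012) and from 52.2 to 19.9 CPM in 2i/LIF (-1.37 ± 0.08, adjusted p = 1.53e-07). Cxxc4, a CXXC protein related to the DNA binding domain once part of Tet2, rose in FCS/LIF from 0.688 to 2.83 CPM (2.02 ± 0.25, adjusted p = 0.000272). In 2i/LIF, Dppa3, which keeps Uhrf1 off chromatin, rose from 11.4 to 122 CPM (3.43 ± 0.36, adjusted p = 1.29e-05), and the RNA binding protein Lin28a rose from 55.9 to 272 CPM (2.29 ± 0.20, adjusted p = 3.48e-06). The list medians on the log2 scale were -0.19 and 0.34.

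Readers of methylated CpG gave 2 of 10 called in FCS/LIF (both higher) and 4 of 10 in 2i/LIF (3 higher and 1 lower), beside 18.8% and 18.6% of all genes, with median log2 fold changes of 0.20 and 0.10. Mbd2 rose in both, by 0.99 ± 0.11 (SE, edgeR adjusted p = 0.000145) in FCS/LIF and 0.64 ± 0.12 (adjusted p = 0.000735) in 2i/LIF. Zbtb4 rose in FCS/LIF (0.67 ± 0.16, adjusted p = 0.0077) and fell in 2i/LIF (-1.18 ± 0.24, adjusted p = 0.00156), at levels between 2.37 and 6.26 CPM. Mbd1 and Zbtb33 rose in 2i/LIF, by 0.62 and 0.60 on the log2 scale. Base excision and demethylation genes gave 3 of 16 (1 higher and 2 lower) and 2 of 15 (1 higher and 1 lower), with medians of -0.02 and -0.16. Parp1 fell in both media, by 0.66 in FCS/LIF and 0.63 in 2i/LIF on the log2 scale, the uracil glycosylase Ung fell by 0.66 in FCS/LIF, Gadd45b rose by 1.61 in FCS/LIF, and Gadd45g rose by 3.23 in 2i/LIF.

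The next list holds genes for the supply of methyl groups and of 2-oxoglutarate, the cosubstrate of the Tet enzymes. In FCS/LIF 3 of 13 were called, each lower, beside 18.8% of all genes (6.4% lower), and in 2i/LIF 4 of 13, each lower, beside 18.6% (9.56% lower), with median log2 fold changes of -0.38 and -0.14. Psat1, of serine synthesis, fell from 419 to 169 CPM in FCS/LIF (-1.33 ± 0.17, SE, edgeR adjusted p = 0.00031) and from 495 to 323 CPM in 2i/LIF (-0.60 ± 0.09, adjusted p = 0.000198). The serine hydroxymethyltransferase Shmt2 fell by 1.24 and 0.72 on the log2 scale and Shmt1 by 0.79 in FCS/LIF, and the isocitrate dehydrogenases Idh2 and Idh1 fell by 1.26 and 0.75 in 2i/LIF. DNA replication genes, which follow the S phase in which Dnmt1 and Uhrf1 act, gave 2 of 16 called in FCS/LIF, Ccne2 higher by 0.86 and Ccne1 lower by 0.59, and 0 of 16 by edgeR in 2i/LIF (12 of 16 at an unadjusted p under 0.05, with 0 called by DESeq2 and 1 by limma), with medians of -0.27 and -0.16.

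Germline genes that are known to be held silent by promoter methylation were called in both directions in −E−N. In FCS/LIF 5 of 14 were called, 2 higher and 3 lower, and in 2i/LIF 4 of 15, 1 higher and 3 lower, beside 18.8% and 18.6% of all genes, with median log2 fold changes of -0.07 and -0.39. Taf7l rose in both media, by 1.67 ± 0.23 (SE, edgeR adjusted p = 0.000482) in FCS/LIF and 1.38 ± 0.34 (adjusted p = 0.00591) in 2i/LIF. Sycp3, a protein of the meiotic chromosome axis, fell by 0.91 and 0.96 on the log2 scale and Hormad1 by 1.07 and 0.63. Dazl, a germ cell RNA binding protein, fell from 52.8 to 15.4 CPM in 2i/LIF (-1.76 ± 0.21, adjusted p = 3.33e-05), and Rpl10l fell by 1.26 in FCS/LIF. Between media in +E+N, 9 of 15 germline genes were called, 7 higher in 2i/LIF and 2 lower, beside 34.7% of all genes (17.2% higher and 17.5% lower).

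Genes whose pattern over the 20 libraries was most like that of each enzyme were ranked by Pearson's r on log2 CPM centred within medium, over 12198 genes, as a description in which all genes share the libraries and their states. Tet2 was closest to Klf4 (r = 0.974), Spp1 (0.973) and Mettl5 (0.972), and Tet1 to Atf1 (0.972), Bicral (0.971) and Mreg (0.966). Uhrf1 was closest to Bard1 (0.969), Chtf18 (0.968) and Ddx54 (0.961), and Dnmt1 to Bag6 (0.938), Brd3 (0.907) and Tonsl (0.899). Dnmt3b was closest to Zfp280c (0.951), Lin28a (0.95) and Vps33a (0.945), Dnmt3a to Smc3 (0.905), Rnmt (0.901) and Krr1 (0.883), Dnmt3l to Lrrc27 (0.913), Pwwp2b (0.91) and Vrtn (0.895), and Tet3 to Fbxo34 (0.879), Grin2d (0.876) and Shisa4 (0.868). Within the 8 genes, r was 0.916 between Tet1 and Tet2, 0.829 between Uhrf1 and Tet1, 0.728 between Dnmt3b and Dnmt3l, -0.693 between Dnmt3b and Tet2 and -0.701 between Tet1 and Tet3 (20 libraries each).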

How the data were processed

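RNA-seq of 20 libraries was used. Reads were stranded and paired-end. The authors mapped them with STAR (mm10) and used RSEM for quantification, and the deposited estimated counts were already whole numbers. The deposited TPM values come from the same RSEM runs. Whether RSEM used the strand is not given in the sources used here. Of 54238 rows, 92 were ERCC rows, all at 0 and left out, which leaves 54146 genes. The 8 genes and the lists of partner and marker genes were chosen with earlier results of these data known.

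The 4 states of a medium were fitted together with edgeR 4.0.16 (R 4.3.3), TMM and the quasi-likelihood test. A gene was tested if every replicate of some state had 20 counts or more (15636 in FCS/LIF, 14355 in 2i/LIF and 16147 in all 20 libraries, used between media). Adjusted p is Benjamini-Hochberg over all genes tested. The limits, adjusted p under 0.01 and fold over 1.5, follow the study's methods, with no fold limit for interactions and responses between media. Medium and batch, and NrKO line and loss of Nr5a2, cannot be told apart. The genes named are the 8 enzymes, for each the 3 genes of highest r, and up to 4 called genes per list and medium by size of change. Promoters and starts are from RefSeq (GRCm38.p6), in which all 8 genes were found. Alternatives were DESeq2 1.42.0, its size factors in edgeR, limma 3.58.1 on log2 TPM with a pseudocount of 1 or 0.1, no low count filter, filterByExpr, the compared states alone, all 20 libraries, a replicate block, other limits and leaving out each library. The edgeR fit was tested on simulated data for −E−N against +E+N, the interactions and the response to −E−N by medium. The other steps were not.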

Additional observations from a re-analysis of the deposited data

Results flagged for a closer look

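The response of 3 genes to the losses differed between the media by the test of the difference itself, as 2i/LIF minus FCS/LIF on the log2 scale. For Dnmt3a the difference was 1.01 in −E (edgeR adjusted p = 0.00103) and 1.15 in −E−N (adjusted p = 3.13e-05). Limma called neither, and that in −E was also lost without FCS/LIF −E replicate 2. Dnmt3a rose by 0.61 in −E in 2i/LIF, a call lost in 8 of 12 fits that left out 1 library. In FCS/LIF −E its log2 fold change of -0.42 was under the fold limit. For Dnmt3b the difference was 0.89 in −E−N (adjusted p = 0.000727), where the log2 fold change was 1.23 in 2i/LIF and 0.30 in FCS/LIF. For Dnmt3l it was 1.45 in −E−N (adjusted p = 0.00107), where it was 1.79 in 2i/LIF and 0.31 in FCS/LIF. Medium and culture batch cannot be told apart. Groups of 2 or 3 libraries were not searched for single values that stand apart.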

How the results depend on the processing

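Of 1160 log2 fold changes of the 8 genes under other settings, 1089 kept their sign and their side of the limits, and 1526 of 1600 did so when 1 library was left out. The number of the 8 genes called in FCS/LIF −E rose from 2 to 6 with no fold limit, and in −E−N against −E from 2 to 4. The FCS/LIF interaction went from 0 to 2 calls with DESeq2 and 3 with no low count filter, and the 2i/LIF interaction to 1 and 2. In 2i/LIF −E it fell to 1 in limma (either pseudocount) and with the compared states alone, and in −E−N against −N to 1 in limma. In 2i/LIF −N it rose from 1 to 2 with DESeq2, no filter, an adjusted p limit of 0.05, the compared states alone and all 20 libraries. The response to −E by medium went from 1 to 4 with DESeq2, no filter and a limit of 0.05, and to 0 in limma, and with no filter that to −N went from 0 to 2 and that to −E−N from 3 to 5. Leaving out 1 library gave 1 to 2 calls in FCS/LIF −E−N against −E, in 2i/LIF −E and in 2i/LIF −N, and 0 to 2 in the response to −E. The cause of these moves was not tested.

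The main fits used no replicate block, since the study's methods name none. Deviations of same-numbered libraries correlated at 0.041 to 0.369 in FCS/LIF and -0.013 to 0.567 in 2i/LIF, over 0.1 in 10 of 12 and 17 of 18 pairs. With 2 libraries a state in FCS/LIF, both numbers give the same r by construction, so each value there is listed under both numbers. In FCS/LIF 8 of 8 libraries, under the same limit, and in 2i/LIF 11 of 12 correlated best with their own number. The numbers may therefore pair the libraries, which the main fits ignore. With the replicate block, calls among the 8 genes over the 16 comparisons went from 35 to 42, with 2 in the FCS/LIF interaction, 2 in 2i/LIF −N, 1 in the 2i/LIF interaction, 4 in the response to −E and 4 in the response to −E−N, where Tet2 was gained (0.72). Between media in +E+N they went from 6 to 5, where the Tet2 difference was 0.42 and no longer called.

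Signs changed only for differences near 0 that were not called. In limma these were Uhrf1 in FCS/LIF −N (0.0026 with either pseudocount) and Dnmt1 in −E−N against −E (0.0200 and 0.0202 in FCS/LIF, 0.00703 and 0.00718 in 2i/LIF). Dnmt1 also changed sign in FCS/LIF −E−N against −N with the compared states alone (-0.0099) and in the 2i/LIF interaction with filterByExpr (-0.00013) and all 20 libraries (-0.0037). Leaving out 1 library gave Dnmt1 ranges of -0.021 to 0.15 in FCS/LIF −E, -0.063 to 0.11 in −N, -0.047 to 0.13 in −E−N, -0.048 to 0.078 in −E−N against −N and -0.14 to 0.036 in the interaction, and of -0.11 to 0.049 in 2i/LIF −E−N against −E, -0.060 to 0.10 in the interaction and -0.17 to 0.00355 in the response to −N by medium. The other such ranges were -0.16 to 0.066 for Uhrf1 and -0.085 to 0.087 for Dnmt3l in FCS/LIF −N, -0.0086 to 0.093 for Dnmt3b in FCS/LIF −E−N against −N, -0.088 to 0.14 for Dnmt3b in the 2i/LIF interaction, -0.0018 to 0.40 for Dnmt3l in 2i/LIF −E−N against −E, -0.25 to 0.085 for Tet2 in the response to −N and -0.042 to 0.076 for Tet3 in the FCS/LIF interaction.

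Over all genes, calls moved by over 1.5 times in 12 comparisons. In FCS/LIF they went from 901 to between 445 and 1631 for −E, from 27 to 0 and 548 for −N, from 1573 to 920 and 2556 for −E−N against −N, from 790 to 437 and 1571 against −E, and from 5 to 0 and 242 for the interaction. In 2i/LIF they went from 223 to 136 and 596 for −E, from 524 to 309 and 1115 for −N, from 970 to 662 and 1622 for −E−N against −N, and from 44 to 7 and 324 for the interaction. For the responses by medium they went from 171 to 119 and 728 for −E, from 120 to 56 and 809 for −N, and from 2136 to 1796 and 3703 for −E−N. With 2 or 3 libraries a state, an exact permutation test of 1 gene cannot go below p = 0.333 in FCS/LIF and 0.1 in 2i/LIF. Tet3, at 7.75 to 29.5 CPM, is the least deeply counted of the 8, except in FCS/LIF −E−N, where Tet2 was lower.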
